A study of Mus musculus with 6 samples.

Results

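The HP1, HUSH and Trim28 silencing genes comprise 10 genes whose products pack retrotransposons and other repeats into heterochromatin. They were taken by name: Trim28, Cbx1, Cbx3, Cbx5, Mphosph8, Fam208a, Pphln1, Morc2a, Morc3 and Smchd1, and all 10 were found among the 19571 genes of the authors' deposited table. RNA came from E14 mouse embryonic stem cells, grown on gelatin in serum with LIF and labelled day 14. The 3 knock-out (KO) samples are Dot1L-/- cells made with CRISPR/Cas9 and the 3 wild-type (WT) samples are unedited cells of the same line, with no other allele or agent given. The sources used here do not say whether the KO samples are 1 clone or several, or whether replicates were separate cultures, so p-values measure only the spread between these samples. Dot1l encodes the methyltransferase that places methyl groups on lysine 79 of histone H3, and the comparison asks which transcripts differ when it is lost.

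Silencing of this kind begins with proteins that find their targets. KRAB zinc finger proteins bind DNA in retrotransposons and recruit Trim28, which brings in the methyltransferase Setdb1, and HP1 proteins bind the methylated lysine 9 of histone H3 that Setdb1 leaves. The HUSH complex reads the same mark and silences young LINE-1 elements and other intron-poor transcribed DNA, while the ATPases Morc2a, Morc3 and Smchd1 help to compact the chromatin. In embryonic stem cells some of these factors, among them Trim28, are known for keeping endogenous retroviruses silent.

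None of the 10 genes passed the test between Dot1l KO and WT. By DESeq2 with Benjamini-Hochberg adjustment over all genes, 0 of 10 were called at an adjusted p under 0.05. The share called was 6.58% of all genes (5.34% higher and 1.25% lower). It was 2.47% of the 5990 tested genes with a mean at least as high as that of the lowest member. At an unadjusted p under 0.05 the members' count was also 0, beside 3163 of 19564 tested genes and 578 of those 5990. Log2 fold changes from the authors' deposited table ran from -0.17 for Smchd1 to 0.26 for Morc3, with adjusted p from 0.809 to 0.979. Their median was 0.09, beside -0.02 over all genes and -0.19 over the genes of comparable mean. Of those 5991 genes, 48.7% had a change larger in size than that of any member. Size was taken from 0 here, so the negative median of those genes enters that share.

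The tables give a mean over all libraries and a fold change, and no values per sample. Group means below were therefore computed from those 2 numbers under equal group sizes, and the error given is the standard error (SE) of the log2 fold change over 3 KO and 3 WT samples. A positive change was read as higher in KO, since published work describes the retrovirus MERVL as repressed by Dot1l; the files do not state the sign, and every direction would turn with it. Dot1l RNA itself stood at -0.16 ± 0.25 (adjusted p = 0.845) from the authors' deposited table so its level gives no check of the genotype labels. All 7 stem cell markers, among them Pou5f1, Sox2 and Nanog, had means from 5956 to 44589 normalized counts and 0 passed the test of DESeq2, with 1 at an unadjusted p under 0.05. Most markers of other cells or states were called higher in KO, beside 5.34% of all genes. These were 7 of 11 for the 2-cell-like state (means from 5.59 to 328) and 4 of 5 measured for primitive endoderm (24.0 to 163). For fibroblasts 4 of 5 measured were called higher, with means from 16.1 (Col3a1) to 734 (Thy1). The fifth, Vim, had a mean of 7641 and went the other way at -0.48 ± 0.25 (DESeq2 adjusted p = 0.333). The part of these markers in the values below was not tested.

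**Figure D1:**
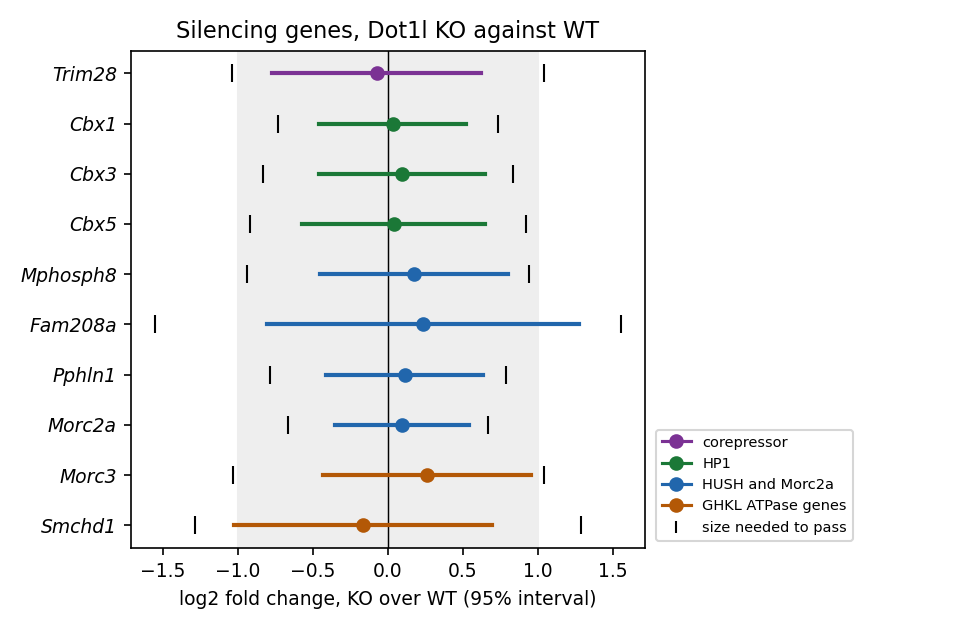
Log2 fold change of each silencing gene (points) with its 95% interval (lines), KO over WT; the grey band is a change under 2-fold and black ticks mark the size a gene needed to pass the test. All 10 intervals hold 0 and none of the points reaches its ticks, which lie farthest out for Fam208a and Smchd1.

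Trim28 was the most abundant member by far. Its product is the corepressor on which KRAB zinc finger proteins converge, and its gene (chromosome 7, 12999114 to 13031035 in mm10) gave a mean of 95120 normalized counts from the authors' deposited table, rank 19 among all genes. The implied group means were 97628 in WT and 92613 in KO. The authors' deposited table gives a log2 fold change of -0.08 ± 0.35 (adjusted p = 0.955), which is 0.949-fold with a 95% interval of 0.586 to 1.54. Per kb of exon Trim28 stood at 22876 normalized counts, 13.3 times the next member and at percentile 99.6 of all genes.

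The 3 HP1 genes lay close to 0 in their changes. Each HP1 protein pairs a chromodomain, which holds the methylated histone tail, with a chromoshadow domain for dimers and partners. Cbx5, encoding HP1 alpha (chromosome 15, 103191544 to 103239816), had implied means of 15243 normalized counts in WT and 15647 in KO, and a log2 fold change of 0.04 ± 0.31 (adjusted p = 0.979) from the authors' deposited table. For Cbx1, encoding HP1 beta (chromosome 11, 96789127 to 96808640), the means were 6685 in WT and 6835 in KO, with 0.03 ± 0.25 (adjusted p = 0.976) from the authors' deposited table. Cbx3, encoding HP1 gamma (chromosome 6, 51470360 to 51483704), had 2331 in WT and 2486 in KO, with 0.09 ± 0.28 (adjusted p = 0.932) from the authors' deposited table.

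The make-up of the HP1 pool at the RNA level was nearly the same in both genotypes. Summed per kb of exon, the 3 genes gave 3646 normalized counts in WT and 3752 in KO. Cbx5 held 46.4% of that sum in WT and 46.3% in KO, Cbx1 42.9% and 42.6%, and Cbx3 10.7% and 11.1%. The order of the shares depends on the length used: per kb of the longest transcript Cbx1 held 52.7% in WT and 52.3% in KO, Cbx5 32.4% and 32.3%, and Cbx3 14.9% and 15.4%, an alternative chosen after seeing the data. These shares have no interval, because the errors of the 3 genes within a library are not known here.

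Cbx3 is the member whose reads are hardest to place. A search of its longest coding transcript against the annotated mouse transcripts found 11 processed pseudogenes with stretches of 90.5% to 99.8% identity over at least 200 bases, while Cbx1 and Pphln1 had 1 such copy each and the other 7 members none. Of the 11, 3 have values: Cbx3-ps7, Cbx3-ps2 and Cbx3-ps1, with means of 5.21, 8.66 and 5.39 from the authors' deposited table. The closest of the 3, Cbx3-ps7 (chromosome 1, 58646688 to 58647239), differs from Cbx3 at 2 of 552 aligned bases, so a read within the longest matching run of 389 bases fits both. The stretch below holds both differences, in capitals; it is bases 360 to 420 of the Cbx3 coding sequence (chr6:51481753-51481813, mm10, plus strand) beside the matching part of the pseudogene, both 5′ to 3′ from GENCODE transcripts.
Cbx3: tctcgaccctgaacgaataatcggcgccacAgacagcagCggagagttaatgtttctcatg
Cbx3-ps7: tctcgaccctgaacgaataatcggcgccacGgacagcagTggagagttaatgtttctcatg
The treatment of reads that fit several places is not stated, so the level of Cbx3 carries that uncertainty.

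**Figure D2:**
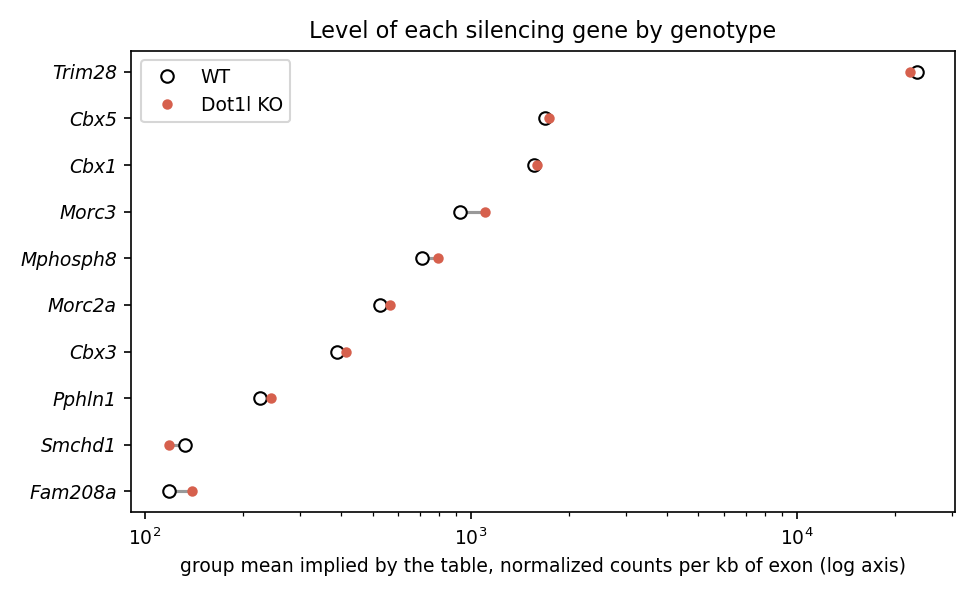
Group mean of each silencing gene in WT (open circles) and Dot1l KO (filled circles), in normalized counts per kb of exon on a log axis. The distance between the genotypes is small beside the spread between genes. In WT that spread ran from 23480 per kb for Trim28 to 119 for Fam208a, and in KO from 22273 for Trim28 to 118 for Smchd1.

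The 4 genes of HUSH and its effector all had small positive values. Mphosph8 encodes the HUSH subunit with the chromodomain (chromosome 14, 56668248 to 56697430). Its implied means were 2535 normalized counts in WT and 2853 in KO, and its log2 fold change was 0.17 ± 0.32 (adjusted p = 0.876) from the authors' deposited table. Fam208a, also called Tasor, is the scaffold of the complex (chromosome 14, 27428834 to 27483555). Its means were 1617 in WT and 1900 in KO, with 0.23 ± 0.53 (adjusted p = 0.902) from the authors' deposited table. This SE was the largest of the 10, at percentile 98.8 of genes in the same one of 20 bins of mean count.

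Pphln1, the gene of periphilin, is the third HUSH subunit (chromosome 15, 93398350 to 93491510) and had the lowest mean of the members, 1066 from the authors' deposited table. Implied means were 1025 in WT and 1106 in KO, and the change was 0.11 ± 0.27 (adjusted p = 0.910) from the authors' deposited table. Morc2a, the ATPase that HUSH recruits (chromosome 11, 3649191 to 3690477), was measured most tightly. It had 3391 in WT and 3622 in KO and a log2 fold change of 0.10 ± 0.23 (adjusted p = 0.908) from the authors' deposited table.

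Of the HUSH genes, 3 share exon bases with a gene on the opposite strand, and the sources used here do not say whether the counting used strand. Fam208a shares 1763 bases, 12.9% of its exon length, with Ccdc66, which had 0.47 ± 0.36 (adjusted p = 0.588) from the authors' deposited table. Morc2a shares 483 bases (7.52%) with the non-coding RNA Tug1, at -0.07 ± 0.28 (adjusted p = 0.946) from the authors' deposited table. Mphosph8 shares 384 bases (10.7%) with Gm16973, a non-coding RNA at -0.20 ± 0.29 (adjusted p = 0.825) from the authors' deposited table.

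Morc3 and Smchd1 stood at the opposite ends of the 10 changes. Morc3 encodes an ATPase that represses endogenous retroviruses (chromosome 16, 93832121 to 93876073); it had implied means of 5033 in WT and 6026 in KO, and 0.26 ± 0.35 (adjusted p = 0.809) from the authors' deposited table. Smchd1 encodes a protein of X inactivation and imprinted clusters (chromosome 17, 71344489 to 71475343), with 2658 in WT and 2368 in KO and -0.17 ± 0.44 (adjusted p = 0.919) from the authors' deposited table. The 95% intervals, -0.43 to 0.95 for Morc3 and -1.03 to 0.69 for Smchd1, overlap widely.

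The precision sets what could have been seen. At the SE of each gene, the observed change had to reach between 1.59-fold (Morc2a) and 2.94-fold (Fam208a) to be called. These sizes apply to the estimate, and the power to call a true change of a given size was not computed. A Wald test of whether the change is under 2-fold, computed from the deposited fold changes and SEs and adjusted over all genes, passed for 7 of 10: Trim28 (adjusted p = 0.0246), Cbx1 (0.00318), Cbx3 (0.00833), Cbx5 (0.0102), Mphosph8 (0.0251), Pphln1 (0.00676) and Morc2a (0.00285). It passed for 27.3% of all genes and 56.6% of the genes of comparable mean, so the members' share is near that of other well expressed genes. It missed the threshold for Morc3 (0.0603), Smchd1 (0.0833) and Fam208a (0.162), for which a 2-fold change was therefore not shown to be absent. With a bound of 0.5 on the log2 scale, 0 members and 0% of all genes passed.

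**Figure D3:**
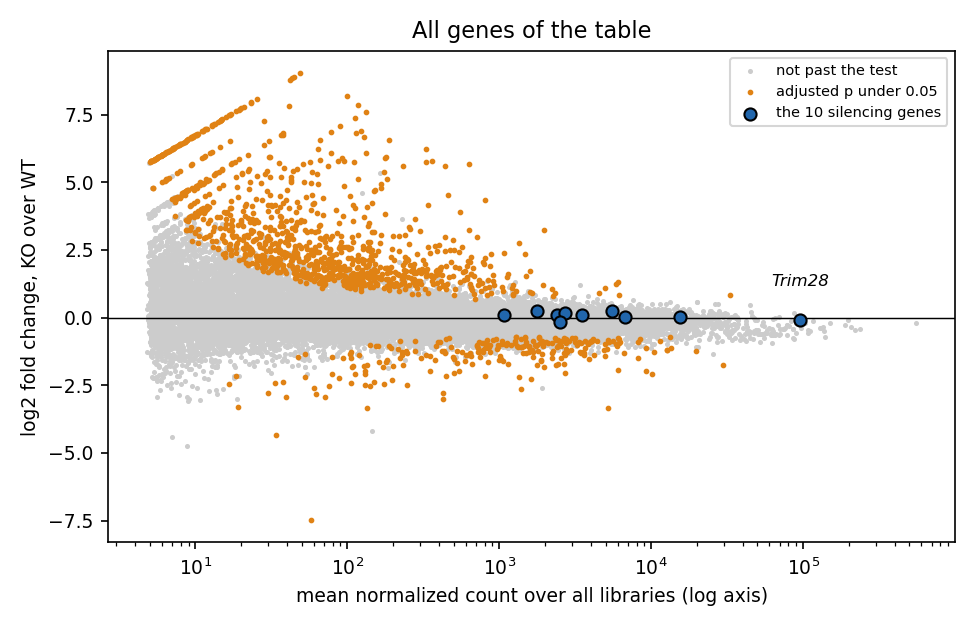
Log2 fold change (KO over WT) against mean normalized count (log axis) for all 19571 genes; genes past the test are orange and the 10 silencing genes blue. The silencing genes lie between -0.17 and 0.26 at means of 1066 to 95120, inside the band of genes that did not pass.

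Well expressed genes as a whole had slightly negative changes. In the bins of mean count that hold the members, the median log2 fold change lay between -0.22 and -0.16, and all 10 members were above the median of their own bin. Relative to those medians Trim28 and Smchd1, negative as deposited, became positive at 0.12 and 0.05, and the members' median became 0.28. After this centring 0 of 10 passed (DESeq2 values centred within bins, adjusted p from 0.684 to 0.980), beside 4.66% of all genes.

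Levels differed far more between the genes than between the genotypes. Per kb of exon the order ran Trim28, Cbx5 (1715 normalized counts), Cbx1 (1582), Morc3 (1018), Mphosph8 (751), Morc2a (546), Cbx3 (402), Pphln1 (234), Fam208a (129) and Smchd1 (126), a span of 182-fold. Smchd1 and Fam208a, the lowest, still lay at percentiles 57.9 and 58.4 of all genes. Whether neighbours in that order, such as Cbx5 and Cbx1 or Fam208a and Smchd1, differ beyond the spread over samples could not be tested, since the table gives no error for a level. Exon length here is the union of all annotated exons, and with the longest transcript in its place 4 members rose over 1.5 times, Cbx1 to 2844, Cbx3 to 823, Fam208a to 232 and Smchd1 to 356 per kb.

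All members have promoters rich in CpG dinucleotides, a feature common among broadly expressed genes. In RefSeq windows of 300 bases (250 before to 50 after the start, GRCm38.p6), in which each CG was counted once since it reads the same on both strands, the 10 promoters held from 20 (Morc3) to 53 (Pphln1) CG. The median over 32851 promoters was 7, and 26.5% of them held at least 20. Printed here are the 250 bases before the start for 3 genes, with each CG in capitals and each read 5′ to 3′ on the gene's strand. Cbx5 (chr15:103239853-103240102, minus strand) is the HP1 gene with the highest mean count. Morc3 (chr16:93831871-93832120, plus strand) has the fewest CG in the window of 300 bases. Smchd1 (chr17:71475344-71475593, minus strand) is the lowest per kb of union exon.
Cbx5: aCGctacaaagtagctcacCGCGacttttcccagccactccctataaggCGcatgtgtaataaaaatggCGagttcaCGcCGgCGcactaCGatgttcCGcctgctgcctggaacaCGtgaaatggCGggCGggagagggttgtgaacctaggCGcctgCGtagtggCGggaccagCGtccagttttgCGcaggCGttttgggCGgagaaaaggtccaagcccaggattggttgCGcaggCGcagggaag
Morc3: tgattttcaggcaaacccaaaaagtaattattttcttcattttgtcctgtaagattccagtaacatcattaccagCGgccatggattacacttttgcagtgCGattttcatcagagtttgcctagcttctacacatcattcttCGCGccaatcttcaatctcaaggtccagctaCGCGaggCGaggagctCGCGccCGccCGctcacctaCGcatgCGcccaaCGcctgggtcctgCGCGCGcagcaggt
Smchd1: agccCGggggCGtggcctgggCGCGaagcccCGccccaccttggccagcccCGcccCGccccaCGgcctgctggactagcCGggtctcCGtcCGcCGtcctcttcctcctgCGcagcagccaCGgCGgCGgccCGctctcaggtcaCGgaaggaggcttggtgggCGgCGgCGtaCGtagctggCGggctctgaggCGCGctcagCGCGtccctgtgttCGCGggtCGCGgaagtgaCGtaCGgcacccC
These stretches hold 22, 17 and 33 CG, and the most of the 3 belong to Smchd1. The last capital C of Smchd1 has no G within the stretch and is not counted.

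Among genes that work with the members, few passed. The 7 lists of partners hold 68 genes, 67 of them measured; 2 rose and 1 fell (DESeq2, adjusted over all genes), and the median log2 fold change was -0.03. With 3 of 67 called, the share is near the 6.58% of all genes and is no finding about the lists. At an unadjusted p under 0.05 the count was 8 of 67, beside 3163 of 19564 tested genes. All 3 calls were lost under Bonferroni adjustment and when the Wald statistics were scaled by their interquartile range. For H3K9 methyltransferases and their cofactors, 0 of 10 passed, also at an unadjusted p under 0.05, with a median of -0.19. The lowest p there belonged to Ehmt2, the G9a methyltransferase, at -0.57 ± 0.31 (adjusted p = 0.354) from the authors' deposited table.

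Partners of Trim28 gave 1 rise among 17. Trim66, a TRIM family relative of Trim28, rose by 1.74 ± 0.43 (adjusted p = 0.00228) at a mean of only 156 from the authors' deposited table. The other relatives, Trim24 and Trim33, had -0.07 ± 0.25 and 0.09 ± 0.32 from the authors' deposited table. Among 9 measured KRAB zinc finger genes 0 passed the test of DESeq2 and 1 had an unadjusted p under 0.05, Zfp600 at 1.26 ± 0.48 (adjusted p = 0.101) from the authors' deposited table; it belongs to a family of near-identical genes.

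HP1 partners gave 1 fall among 12, Chaf1b, a subunit of the CAF-1 chaperone that binds HP1 through its large subunit. Chaf1b was at -0.93 ± 0.26 (adjusted p = 0.0105) from the authors' deposited table, and the call was lost when changes were centred within bins of mean count. Chaf1a, the large subunit, had 0.17 ± 0.26 (adjusted p = 0.841) from the authors' deposited table. For DNA methylation genes 1 of 8 rose, the de novo methyltransferase Dnmt3a at 0.85 ± 0.24 (adjusted p = 0.00822) from the authors' deposited table.

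In 2 further lists the gene with the lowest p was a paralog of a member, with a larger value than that member and without passing. They were picked by their p, so their size is no finding about paralogs. In the list of HUSH and RNA decay partners 0 of 8 passed the test of DESeq2 and 1 had an unadjusted p under 0.05, Fam208b, the relative of Fam208a, at 1.33 ± 0.54 (adjusted p = 0.144) from the authors' deposited table. Of the other Morc genes 0 of 3 passed, with 2 at an unadjusted p under 0.05. The lowest p was that of Morc2b, a relative of Morc2a with a mean of 36.3, at 2.02 ± 0.70 (adjusted p = 0.0539) from the authors' deposited table. Morc1 stood at 0.16 ± 0.33 and Morc4 at 1.15 ± 0.53. The difference between a member and its paralog was not tested.

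**Figure D4:**
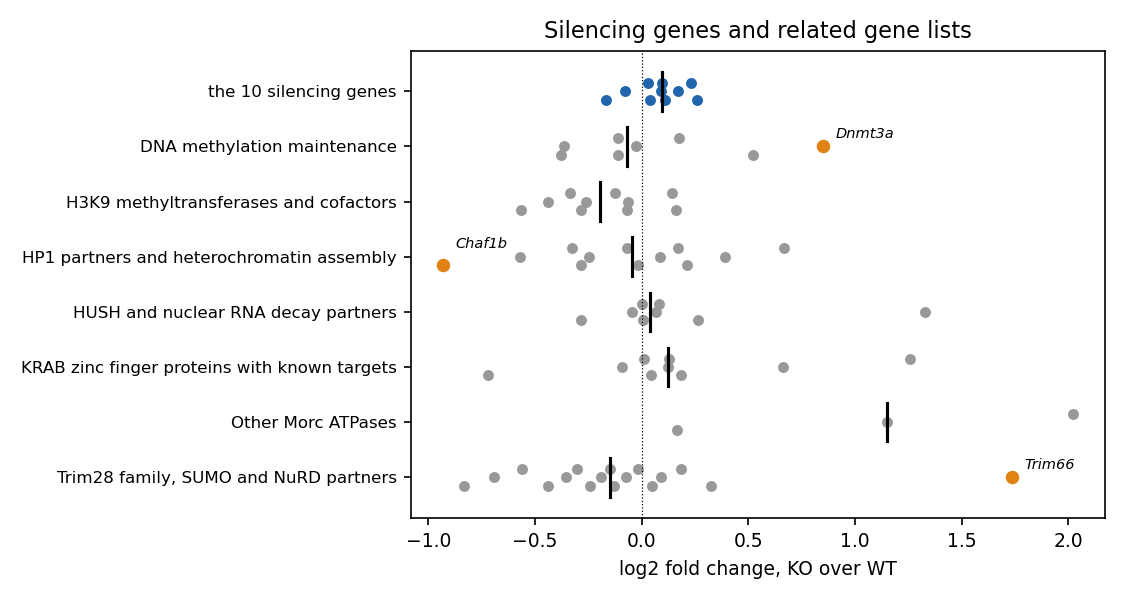
Log2 fold change (KO over WT) of each silencing gene and of each gene in 7 lists of partners, 1 point per gene; black bars are medians and orange points passed the test. Only Trim66, Dnmt3a and Chaf1b are orange, and the 10 silencing genes span a narrower range than each of the 7 lists.

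The elements that these factors silence can be read in the separate table of 938 TE subfamilies, where 0.748% were called. At an unadjusted p under 0.05 by DESeq2 there were 49 of 936 tested subfamilies. Of 24 measured elements from the list, 2 were higher and 1 lower by DESeq2. Both parts of MERVL rose, the internal part MERVL-int by 1.96 ± 0.38 (adjusted p = 0.000107) and its promoter repeat MT2_Mm by 1.64 ± 0.41 (adjusted p = 0.00979) from the authors' deposited table. Since MERVL was used to read the sign, its direction is not independent evidence. The LTR RLTRETN_Mm of the early transposons fell by 2.06 ± 0.48 (adjusted p = 0.00356) from the authors' deposited table.

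Other known targets did not pass. IAPEz-int, the classic target of Trim28 and Setdb1, had implied means of 8511 normalized counts in WT and 5585 in KO, and -0.61 ± 0.26 (adjusted p = 0.642) from the authors' deposited table. Across 5 IAP subfamilies 0 were called by DESeq2, with 2 at an unadjusted p under 0.05 and values from -1.58 to 0.31. The most abundant early transposon part, MMETn-int, stood at -0.82 ± 0.25 (adjusted p = 0.0927) at a mean of 70433 from the authors' deposited table. Of 4 ERV1 subfamilies 0 were called, with 1 at an unadjusted p under 0.05, RLTR4_MM-int at -0.66 ± 0.32 (adjusted p = 0.766) from the authors' deposited table.

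Young LINE-1 elements, silenced by HUSH, gave 0 calls among 5 subfamilies by DESeq2, also at an unadjusted p under 0.05, with values from -0.29 to 0.61. L1Md_A, the most abundant, had 0.08 ± 0.57 (adjusted p = 0.996) from the authors' deposited table, and its 95% interval reached 1.20, so a 2-fold rise lies within the error. Major satellite repeats, the site of HP1 foci, were at -0.53 ± 0.22 (GSAT_MM, adjusted p = 0.530) from the authors' deposited table. The unadjusted p of DESeq2 was 0.0144, with a 95% interval of -0.96 to -0.11. Reads from repeats carry the same uncertainty on multiple mapping as those of Cbx3.

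**Figure D5:**
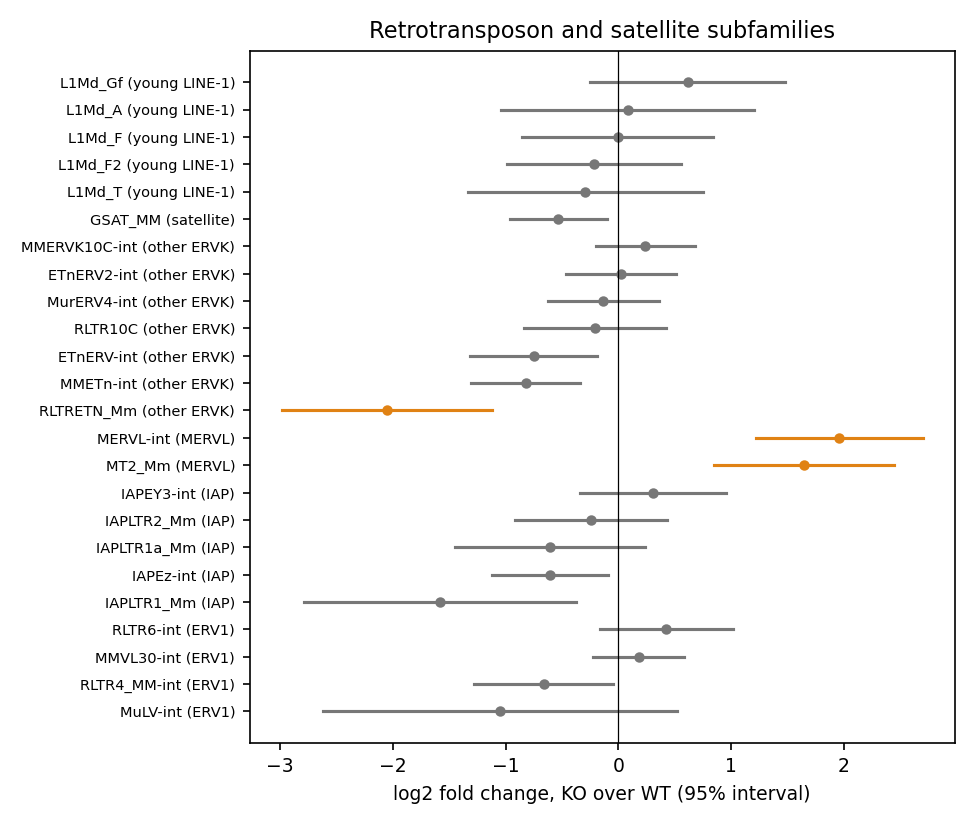
Log2 fold change (KO over WT, points) with 95% interval (lines) for 24 TE and satellite subfamilies, grouped by class; orange marks those past the test. MERVL-int and MT2_Mm lie to the right of 0, RLTRETN_Mm to the left, and the 5 young LINE-1 subfamilies have intervals that hold 0.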

How the data were processed

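Total RNA of 3 Dot1l KO and 3 WT samples was sequenced. The submitters' processing notes name HISAT2 2.1.0, featureCounts 2.0.0, DESeq2 (no version named) and the build mm10. The mean signal, deposited per gene and per TE subfamily, is the average over all libraries of counts divided by size factors, per the file headers. The effect is a log2 fold change, per the file headers, with its SE. The deposited score is the Wald statistic, which equals the change over its SE, and the deposited p-value is that of the Wald test, followed by a Benjamini-Hochberg adjusted p that was recomputed with the same result. There were 7 genes and 2 subfamilies without a p. No values per sample were used here, so depth per library is unknown; the gene means sum to 36042600. The table of single TE copies was not used, because it gives no coordinates.

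With no values per sample, the planned refit by edgeR could not be made and calls are the authors' own at an adjusted p under 0.05. Group means, 95% intervals, the size needed to pass and the test of a change under 2-fold (the larger of the p-values against -1 and 1) were computed with Python 3.11.15 and scipy 1.17.1, and the calling code was tested on simulated data. Gene positions and exon lengths come from GENCODE release M21 (GRCm38, the assembly of mm10), to which 19562 of the 19571 symbols matched, 39 of them at several loci. Copies were sought with blastn 2.17.0 at 90% identity over at least 200 bases. Promoter sequences are from RefSeq (GRCm38.p6), where all 10 members matched, Fam208a as Tasor. The members and lists were chosen with earlier results of these data known. All members were named, and in each partner list the genes past the test or else the one with the lowest p. TE subfamilies were named if past the test or most abundant in their class. Trim24, Trim33, Chaf1a, Morc1, Morc4, copies, neighbours and overlapping genes were chosen after their values were seen. Alternatives were centring, a mean of at least 50, a threshold of 0.01, Bonferroni adjustment and scaling of the statistics.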

Additional observations from a re-analysis of the deposited data

How the results depend on the processing

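No paired analysis was possible because the deposited tables hold no values per sample, and for the same reason leaving out a replicate and refitting counts were not run. The count of 0 silencing genes called held under all 6 alternatives. For genes, the threshold of 0.01, Bonferroni adjustment and scaling of the statistics are stricter than the main test, so they could not raise it. They called 3.92%, 1.58% and 2.33% of all genes. Centring on the median of all genes called 6.63% and centring within bins 4.66%. A mean of at least 50 called 5.55% of the genes kept. At such shares a count of 0 among 10 genes is no finding about this set. Centred within bins of mean count, 2 of the 10 genes changed sign, Trim28 to 0.12 and Smchd1 to 0.0504. Centring on the median of all genes changed no sign, and the remaining alternatives leave the fold changes as they are. The 3 partner genes called fell to 0 under Bonferroni adjustment and to 0 when the Wald statistics were scaled by their interquartile range. The 3 TE subfamilies stayed at 3, or became 4 with MMETn-int added under that scaling. The 7 genes shown to change by under 2-fold, beside 27.3% of all genes, became 4 at an adjusted p under 0.01, beside 10.0%. Those 4 were Cbx1, Cbx3, Pphln1 and Morc2a. With a bound of 0.5 the count was 0, beside 0% of all genes. At a mean count of at least 50 it was 8, with Morc3 added, beside 47.8% of the genes kept. Per kb of the longest transcript, 7 of the 10 genes changed rank. SEs of 0.23 to 0.53 limit what could be called.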

Other observations

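Several silencing genes lie head to head with another gene. Starts within 1000 bases on opposite strands and pointing apart were found for 3 of the 10 by both the outer edge of the GENCODE gene and the RefSeq start of the member, a pattern sought after the values were seen; Trim28 met it by its GENCODE edge only. How many other genes have such a neighbour was not counted, so 3 of 10 is no finding about this set. Distances are given from the GENCODE edges. Cbx3 starts 466 bases from Hnrnpa2b1 and Cbx5 starts 616 bases from Hnrnpa1, both genes of abundant RNA-binding proteins that package nascent transcripts. Hnrnpa2b1 had -0.24 ± 0.27 (adjusted p = 0.757) at a mean of 34881 and Hnrnpa1 had -0.23 ± 0.23 (adjusted p = 0.706) at a mean of 41865 from the authors' deposited table. Pphln1 starts 16 bases from Zcrb1, a zinc finger gene of the minor spliceosome, at -0.48 ± 0.34 (adjusted p = 0.541) from the authors' deposited table. By DESeq2 0 of these 3 neighbours passed the test, also at an unadjusted p under 0.05. No difference between a gene and its neighbour was tested.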
